A study of Mus musculus with 4 samples.

Results

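The ADAM, ADAMTS and ADAMTS-like genes are a family of metalloproteinases and of related proteins without the protease. They were taken here as the protein-coding genes named Adam, Adamts or Adamtsl with a number and, for some, a final letter. The rule gave 57 of the 25704 listed genes, 33 of them Adam, 19 Adamts and 5 Adamtsl. It used the names only and no measured value. RNA had been sequenced from CMT64, a line from a mouse lung carcinoma grown in medium with serum. The 4 conditions were control cells that received the negative control, cells with 5 ng/ml of TGF-β1 (TGF-β below), cells with 10 ng/ml of TNF-α, and cells with both (costimulation), all lysed 24 h after stimulation. Each condition had 1 library of this 1 line, and the spread between cultures is unknown.

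ADAMs sit in the cell membrane and cut other membrane proteins close to the surface, which frees growth factors, cytokine receptors and adhesion molecules, and several act in sperm instead. ADAMTS proteases are secreted, carry thrombospondin repeats that hold them in the matrix, and trim proteoglycans, procollagens and fibrillin networks. ADAMTS-like proteins share the thrombospondin repeats but lack the catalytic domain, and several bind fibrillin. In lung and in tumours the family is known for growth factor release, matrix turnover and invasion.

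The libraries held between 75358896 and 81245906 mapped reads, and exon reads numbered from 67481462 to 71898396. Levels are given as RPKM, which scales exon reads to exon length and to the mapped reads of the library, and folds as ratios of RPKM with the exact 95% counting interval in parentheses. These intervals cover counting error only. The epithelial markers Krt8, Krt18, Krt19 and Cdh1 ranged from 121 to 1625 RPKM, whereas Epcam did not exceed 0.103. The summed fibroblast markers were 0.461 RPKM in control, 9.64 under TGF-β, 0.441 under TNF-α and 11.5 under costimulation. Nearly all of that was Col1a1, which rose with TGF-β. Of the 3 fibroblast markers tested Pdgfrb rose too, with 2 reads in control, 34 under TGF-β, 1 under TNF-α and 56 under costimulation, while Dcn and Lum were at most 0.0161 RPKM in every library. The endothelial markers summed to 0.0925 or less. The part of other cell types in the changes of the members was not tested. Haematopoietic markers summed to between 1.73 and 1.88, nearly all from Cd68, with Ptprc at 0.0151 or less. The control library stood apart in base composition. Over 13423 genes the log2 fold of TNF-α over control had a Spearman correlation of −0.53 with the GC content of the transcript, against −0.25 for TGF-β over control. Between the stimulated libraries it was 0.07 (costimulation over TGF-β) and 0.02 (costimulation over TNF-α).

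Of the 57 genes, 13 reached an RPKM of 1 in at least 1 library. Adam9, Adam10, Adam15, Adam17, Adam8, Adamts9, Adamts10, Adamtsl4 and Adamtsl5 did so in every library, and Adam12, Adamts6, Adamts7 and Adamts14 only in the libraries with TGF-β. The summed RPKM of all members was 132 in control, 175 under TGF-β, 136 under TNF-α and 172 under costimulation. Adam9 alone, a widely expressed membrane protease, made up between 29.7% and 36.2% of that sum and ranked first in all 4 libraries. A further 24 members had fewer than 10 reads in each library, and Adam26a, a testis gene, had 0 reads in all of them, where 3 reads per library is the upper limit that a count of 0 allows. In the text, 21 members are named by rule, and the other 36 had at most 0.669 RPKM.

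**Figure D1:**
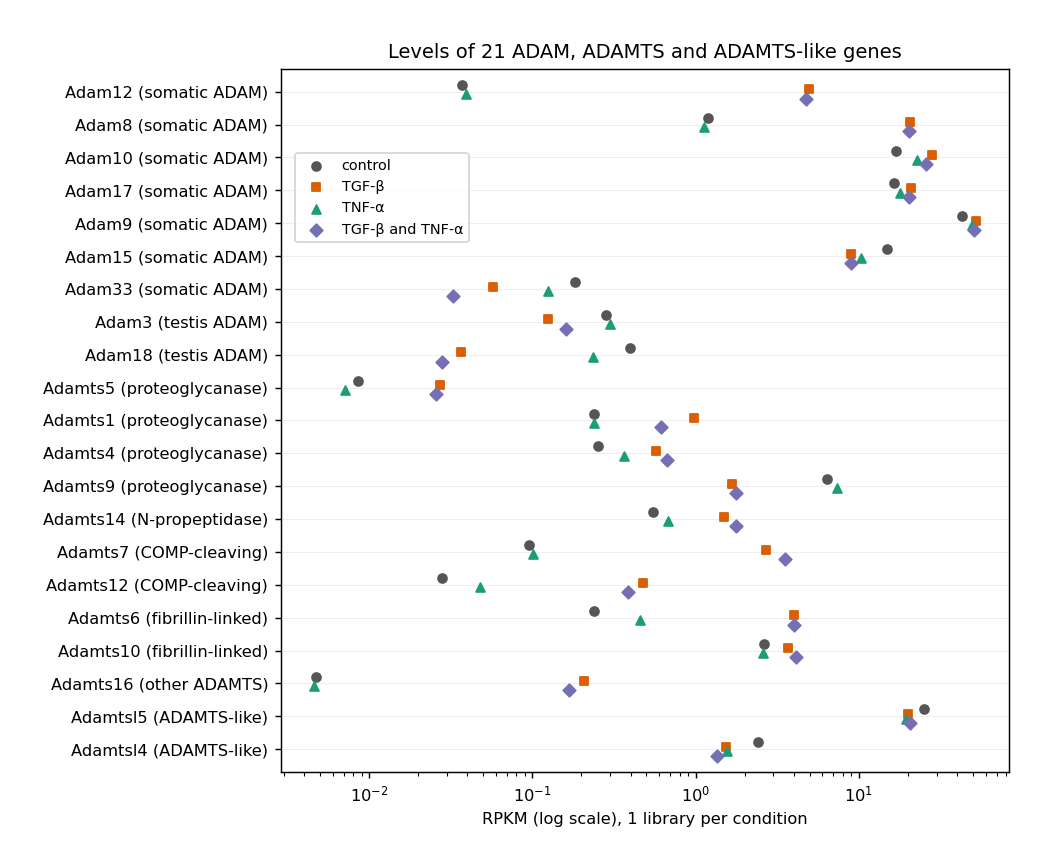
RPKM of the 21 named genes on a log axis, with 1 point per condition, ordered by role and, within a role, by their change with TGF-β. Adam12, Adam8, Adamts7 and Adamts6 form pairs, the 2 libraries with TGF-β far to the right of the 2 without, while the points of Adam9, Adam17 and Adamtsl5 lie close together.

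The first comparison asked which members changed with TGF-β. In edgeR's quasi-likelihood test, with an additive term for each cytokine, 12 of 29 members tested rose with TGF-β (41.4%, against 18.6% of all 13509 genes tested). Another 6 fell (20.7%, against 19.9% of all genes). The risers were Adam8, Adam10, Adam12, Adamts1, Adamts4, Adamts5, Adamts6, Adamts7, Adamts10, Adamts12, Adamts14 and Adamts16, and the genes that fell were Adam3, Adam15, Adam18, Adam33, Adamts9 and Adamtsl4. Genes enter this test by their number of reads. Adamts5 and Adamts16 are among the 29 only through the libraries with TGF-β, and Adam18 only through those without it. All 18 had counting intervals clear of 1 on the side of their call both in TGF-β over control and in costimulation over TNF-α, a pair of ratios that share no library. These 18 were chosen by a test on the same libraries, so the agreement follows in part from the choice and is no separate support. In this test 1 residual degree of freedom, the departure from additivity, stands in for the spread between cultures. With the mRNA of whole cultures, a shift in the share of cells and a shift in RNA per cell cannot be told apart.

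By size, 8 members had a counting interval wholly above 2 in TGF-β over control, among 34 with at least 10 reads (6.37% of all genes with that many reads). They were Adam8, Adam12, Adamts1, Adamts6, Adamts7, Adamts12, Adamts14 and Adamts16. Wholly below 0.5 were Adam18 and Adamts9, which makes 2 of 34 (6.28% of all genes). Adamts16 is among the 34 only through its reads with TGF-β (94, against 2 in control). Adam18 is there only through control (71 reads, against 7 with TGF-β). In costimulation over TNF-α the 8 members above 2 (of 31, background 5.57%) and the 2 below 0.5 (background 5.83%) were the same genes. The threshold used in the study, a fold above 2 with an RPKM above 2 in the treated library, was passed by Adam8, Adam12, Adamts6 and Adamts7, which is 4 of 10 members with that RPKM (5.93% of such genes). In control these 4 lay at 1.19, 0.0369, 0.240 and 0.0949 RPKM. They are therefore among the 10 only through their level with TGF-β. No member passed the study's threshold for lower genes, a fold below 0.25 with a control RPKM above 1 (0 of 9, background 2.52%). The median log2 fold of the 29 members was 0.32 in TGF-β over control and 0.21 in costimulation over TNF-α, beside 0.08 and 0.06 over all genes tested.

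**Figure D2:**
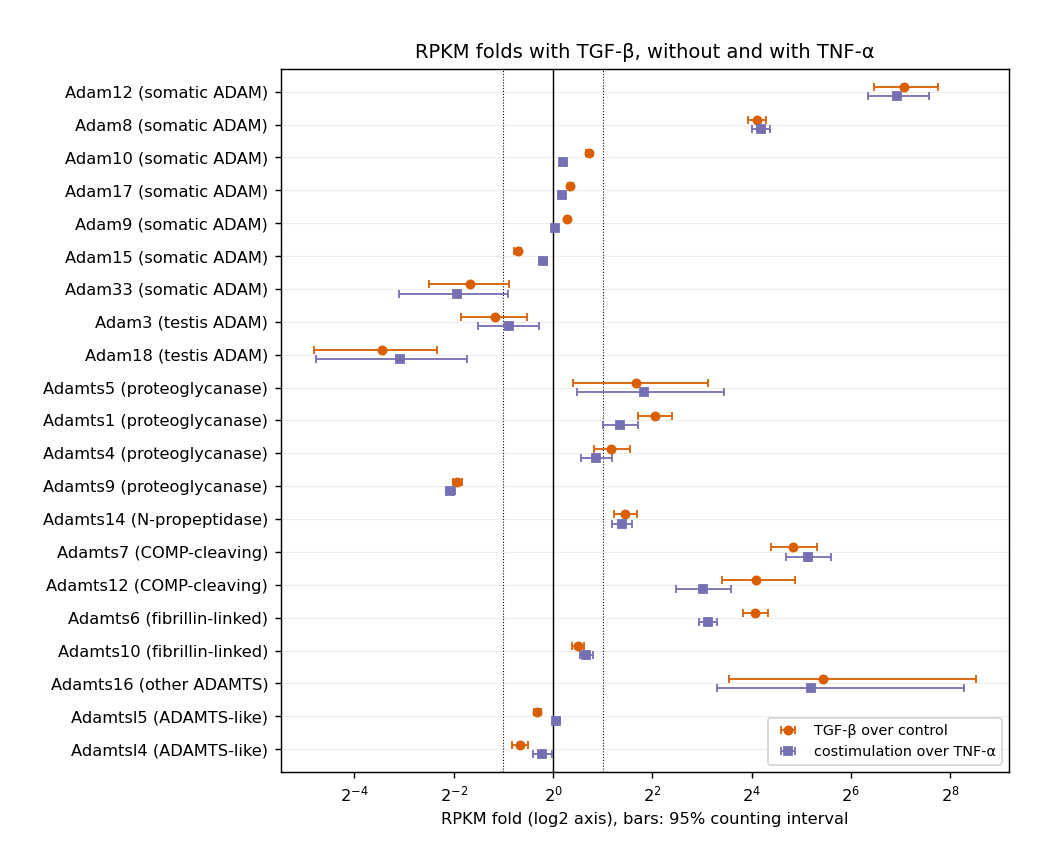
RPKM folds of the 21 named genes on a log2 axis, TGF-β over control (circles) and costimulation over TNF-α (squares), with bars for the 95% counting interval and dotted lines at 2 and 0.5. Adam12 lies farthest to the right with folds of 134 and 121. The whole intervals of Adam18 and Adamts9 lie left of the dotted line at 0.5 in both comparisons. The points of Adam33 lie left of it too, with intervals that cross it.

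Promoter windows are shown for the members past 2-fold in both comparisons for which a sequence was at hand, namely 4 that rose and 1 that fell, to set the letters of both directions side by side. The windows are RefSeq sequences of GRCm38.p6, run from 250 bases before to 50 bases after the annotated start, and are written 5′ to 3′ on the strand of the gene. Capitals mark the short Smad element CAGAC or its reverse complement GTCTG.
Adam8, chr7:139992513-139992812, minus strand: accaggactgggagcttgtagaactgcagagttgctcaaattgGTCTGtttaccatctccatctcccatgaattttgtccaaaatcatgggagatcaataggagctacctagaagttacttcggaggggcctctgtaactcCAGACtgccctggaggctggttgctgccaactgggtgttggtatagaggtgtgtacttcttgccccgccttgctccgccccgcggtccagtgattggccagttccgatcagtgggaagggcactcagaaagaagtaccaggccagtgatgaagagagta
Adamts1, chr16:85803064-85803363, minus strand: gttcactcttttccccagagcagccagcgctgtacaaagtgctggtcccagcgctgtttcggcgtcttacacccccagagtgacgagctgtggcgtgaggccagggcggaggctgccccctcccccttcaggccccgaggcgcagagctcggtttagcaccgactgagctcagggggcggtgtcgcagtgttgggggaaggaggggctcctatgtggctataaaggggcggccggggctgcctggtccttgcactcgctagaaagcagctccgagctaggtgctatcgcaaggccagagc
Adamts12, chr15:11064523-11064822, plus strand: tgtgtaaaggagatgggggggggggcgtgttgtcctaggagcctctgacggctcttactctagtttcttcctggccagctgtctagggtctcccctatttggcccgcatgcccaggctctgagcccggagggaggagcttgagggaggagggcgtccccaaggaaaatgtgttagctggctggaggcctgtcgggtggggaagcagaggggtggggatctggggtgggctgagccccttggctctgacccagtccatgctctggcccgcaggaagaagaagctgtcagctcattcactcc
Adamts14, chr10:61273370-61273669, minus strand: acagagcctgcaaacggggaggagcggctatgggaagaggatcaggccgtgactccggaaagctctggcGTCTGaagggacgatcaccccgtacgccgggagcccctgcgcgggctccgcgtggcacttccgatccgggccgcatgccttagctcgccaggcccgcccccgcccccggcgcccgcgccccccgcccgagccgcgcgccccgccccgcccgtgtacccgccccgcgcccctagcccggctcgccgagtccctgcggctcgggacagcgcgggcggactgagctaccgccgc
Adamts9, chr6:92943485-92943784, minus strand: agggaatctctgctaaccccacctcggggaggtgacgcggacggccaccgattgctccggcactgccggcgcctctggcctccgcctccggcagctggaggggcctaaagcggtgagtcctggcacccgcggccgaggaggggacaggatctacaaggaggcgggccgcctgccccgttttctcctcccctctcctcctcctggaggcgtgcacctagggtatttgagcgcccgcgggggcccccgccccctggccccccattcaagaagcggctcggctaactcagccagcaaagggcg
These 5 windows differ in base composition, from 52.3% GC in Adam8 to 76.7% in Adamts14. Of the letters searched on both strands, CAGAC lay in the windows of Adam8, with its matches 207 and 109 bases before the start, and of Adamts14, 181 bases before it. Among all members that rose, 5 had a window and 2 of these held CAGAC, and among those that fell 1 of 3 did (Adam15). CAGAC was present in 49.6% of all 32851 windows of 300 bases. The AP-1 letters TGANTCA (7.81% of all windows), the TEAD letters GGAATG (14.7%) and the Smad palindrome GTCTAGAC (0.213%) were in 0 of these 8 windows. The degenerate NF-κB motif (GGG and CC with any 5 bases between) was in 4 of the 5 windows of risers and in all 3 of the genes that fell, and in 50.8% of all windows. It overlapped none of the capitals, and a match is a run of letters and no measured site.

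Among the membrane-bound ADAMs with protease activity, Adam12 showed the largest fold of any member. Adam12 (ENSMUSG00000054555, chr7:133883199-134232146), which sheds growth factors such as HB-EGF, had 22 reads in control, 3186 under TGF-β, 24 under TNF-α and 2850 under costimulation. The RPKM was 0.0369 and 0.0391 in the libraries without TGF-β and 4.96 and 4.74 in those with it, so the 2 pairs were far apart. The fold over control was 134 (88.6 to 215) and that over TNF-α 121 (81.3 to 190), and edgeR's log2 fold change was 6.92 ± 0.22 (SE; adjusted p = 4.99e-201). Adam8 (ENSMUSG00000025473, chr7:139978932-139992562), a protease best known from leukocytes, was already present in control cells. Its RPKM was 1.19 in control, 20.5 under TGF-β, 1.12 under TNF-α and 20.4 under costimulation. Its folds of 17.2 (15.3 to 19.5) and 18.1 (16.1 to 20.6) had overlapping intervals, and in edgeR's fit the log2 fold change was 4.08 ± 0.17 (SE; adjusted p = 1.99e-116). With TGF-β, Adam8 rose from rank 9 to rank 4 among the members and lay beside Adam17 and Adamtsl5 at 20.8 and 20.2 RPKM.

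The abundant sheddases moved little in comparison. Adam10 (chr9:70678997-70780229), which cuts Notch receptors and E-cadherin, had an RPKM of 17.0 in control, 28.0 under TGF-β, 22.6 under TNF-α and 26.0 under costimulation. The control library was the low one. Its fold was 1.64 (1.59 to 1.70) over control but 1.15 (1.11 to 1.18) over TNF-α, with a log2 fold change of 0.39 ± 0.15 (SE; edgeR's adjusted p = 0.0231). In edgeR fits with TGF-β as the only term it was 0.38 over all libraries (adjusted p = 0.0669), 0.19 without control (0.0594), 0.32 without TGF-β (0.344) and 0.44 without costimulation (0.153), and it was called only without TNF-α (0.57, adjusted p = 3.01e-05). Adam17, the TNF-α-converting enzyme, lay at 16.3, 20.8, 18.0 and 20.3 RPKM in the same order and was not called (log2 fold change 0.19, edgeR's adjusted p = 0.324). The gene shares 311 bases with Iah1 on the other strand, and the use of strand in the counting is not given in the sources used here. Adam12, Adam3 and Adamts9 overlap genes that were at 0.0533 RPKM or less in every library. For Adam9 the RPKM was 42.7, 52.1, 49.3 and 50.9, again with control lowest, and the log2 fold change of 0.10 was not called (edgeR's adjusted p = 0.612).

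Adam15, which binds integrins through an RGD motif in humans, went the other way. Its RPKM was 14.8 in control, 9.03 under TGF-β, 10.3 under TNF-α and 8.94 under costimulation, so control was the high library. The fold over control was 0.610 (0.582 to 0.639) and that over TNF-α 0.869 (0.825 to 0.916), with a log2 fold change of −0.53 ± 0.15 (SE; edgeR's adjusted p = 0.0020). Adam10 and Adam15 also lie on opposite sides of the median GC content of 51.2%, at 46.0% and 58.6%. When the libraries were scaled separately for genes of like GC content and length, the folds over control were 1.40 and 0.702, on the same sides of 1. Adam33, a gene linked to asthma in humans, was scarce, with 56, 19, 39 and 10 reads in control, TGF-β, TNF-α and costimulation, and fell by 1.84 on the log2 scale (edgeR's adjusted p = 0.00185). The remaining members of this role, Adam19 and Adam28, had at most 12 reads in a library and were not tested.

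Of the 21 ADAMs of testis and epididymis, 7 had enough reads to be tested and 2 fell, where 19.9% of all genes fell. Adam18, a sperm protein gene, had 71 reads in control, 7 under TGF-β, 43 under TNF-α and 5 under costimulation, which is 0.0914 (0.0355 to 0.198) of control and 0.119 (0.0367 to 0.299) of TNF-α. The log2 fold change was −3.33 ± 0.59 (SE; edgeR's adjusted p = 1.16e-07), and at these depths its level fell from 0.399 to 0.0365 RPKM. Adam3, required in mice for sperm to bind the egg coat, had 63, 30, 68 and 36 reads in the same order and fell by 1.09 (edgeR's adjusted p = 0.0261). Over all libraries, intron reads made up 73.75% of the gene reads of Adam18 and 66.4% of those of Adam3. Whether their exon reads come from spliced RNA was not tested. Both genes are neighbours on chromosome 8, and next to them lie Adam5, Adam32 and Adam9, which were not called. Adam1a, with 280 to 408 reads per library, is the most abundant of this role, but none of its reads mapped uniquely. Where else these reads map was not examined. Adam1b, also without unique reads, had 17 reads in control, 7 under TGF-β, 4 under TNF-α and 13 under costimulation. Adam4, with 25 to 43 reads per library, had no unique reads either. Adam1a, Adam1b and Adam4 are among the 7 tested. With unique reads only, 26 members of the whole family were tested. The ADAMs of brain that lack protease activity, Adam11, Adam22 and Adam23, had at most 37 reads in a library and no call in any direction.

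Among the secreted ADAMTS proteases that cut proteoglycans, Adamts1, Adamts4 and Adamts5 rose and Adamts9 fell. Adamts9 (ENSMUSG00000030022, chr6:92772699-92943492), which cuts versican and aggrecan, was the most abundant ADAMTS in control cells. It had 3840 reads in control, 1090 under TGF-β, 4610 under TNF-α and 1078 under costimulation, or 6.36, 1.67, 7.41 and 1.77 RPKM. The libraries with TGF-β lay far below the others, at 0.263 (0.246 to 0.282) and 0.239 (0.223 to 0.255) of them, and edgeR's log2 fold change was −2.06 ± 0.16 (SE; adjusted p = 6.38e-38). Adamts1 (chr16:85793827-85803113), a protease of versican, had 92, 409, 95 and 238 reads in the same order. The fold over control was 4.12 (3.28 to 5.23) and that over TNF-α 2.56 (2.01 to 3.28), and the log2 fold change was 1.64 ± 0.26 (SE; edgeR's adjusted p = 6.04e-09). Adamts4, an aggrecanase, had 92, 224, 137 and 245 reads, which span 0.254 to 0.670 RPKM. It was called as higher (log2 fold change 0.95, edgeR's adjusted p = 0.00219), and 81.1% of its reads mapped uniquely. Adamts5, another aggrecanase and the neighbour of Adamts1 on chromosome 16, had only 7, 24, 6 and 21 reads, 51.7% of them unique, and its call (edgeR's adjusted p = 0.0320) was lost with DESeq2 (adjusted p = 0.366). The other members of this role, Adamts8, Adamts15 and Adamts20, had at most 5 reads in a library.

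Adamts7 and Adamts12, the proteases of a cartilage matrix protein, and Adamts14, a protease of procollagens, were low in control and rose. Adamts7 (ENSMUSG00000032363, chr9:90163069-90208071), which cuts cartilage oligomeric matrix protein (COMP), had 41 reads in control, 1258 under TGF-β, 45 under TNF-α and 1541 under costimulation. Its RPKM went from 0.0949 and 0.101 to 2.70 and 3.54, folds of 28.5 (20.9 to 39.9) and 35.0 (26.0 to 48.2), and edgeR's log2 fold change was 4.91 ± 0.21 (SE; adjusted p = 2.16e-112). The gene shares 6045 bases with Tbc1d2b on the other strand, which had 6.17 RPKM in control and 4.56 with TGF-β. Adamts12, its close relative, had 18, 331, 32 and 253 reads, with folds of 17.1 (10.6 to 29.1) and 8.08 (5.58 to 12.1). Its log2 fold change was 3.44 ± 0.33 (SE; edgeR's adjusted p = 1.40e-23), although it remained below 0.5 RPKM. Adamts14, which removes the amino-terminal propeptide of procollagens, had 214, 631, 274 and 702 reads. Its level was 0.546 and 0.679 RPKM without TGF-β and 1.49 and 1.78 with it, folds of 2.73 (2.34 to 3.21) and 2.62 (2.27 to 3.02) with a log2 fold change of 1.35 ± 0.19 (SE; edgeR's adjusted p = 3.83e-11). The other procollagen N-propeptidases, Adamts2 and Adamts3, had at most 12 exon reads in a library.

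Adamts6 and Adamts10, a pair of related proteases that act on fibrillin networks, both rose, but from different levels. Adamts6 (ENSMUSG00000046169, chr13:104287835-104496695) had 141 reads in control, 2560 under TGF-β, 277 under TNF-α and 2368 under costimulation, and reached 4.04 and 4.0 RPKM in the libraries with TGF-β. The fold over control was 16.8 (14.2 to 20.1) and that over TNF-α 8.73 (7.71 to 9.92), with a log2 fold change of 3.50 ± 0.17 (SE; edgeR's adjusted p = 6.51e-87). Adamts10 had 819, 1252, 835 and 1299 reads in the same order, or 2.62, 3.71, 2.59 and 4.12 RPKM, and changed by 0.52 on the log2 scale (edgeR's adjusted p = 0.00306). With TGF-β the levels of the 2 genes per length were close, whereas in control Adamts10 was far above Adamts6 at 0.240 RPKM. Adamts16, linked to blood pressure in rats, was almost silent without TGF-β. It had 2 reads in control, 94 under TGF-β, 2 under TNF-α and 72 under costimulation, folds of 43.6 (11.7 to 365) and 36.8 (9.82 to 309). Its log2 fold change was 5.18 ± 0.64 (SE; edgeR's adjusted p = 1.30e-14), and the level with TGF-β was 0.206 RPKM. Adamts13, the protease of von Willebrand factor, had at most 3 reads in a library.

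Of the ADAMTS-like proteins, Adamtsl4 fell and Adamtsl5 was not called. Adamtsl4, which binds fibrillin and is linked to lens displacement in humans, lay at 2.42 RPKM in control, 1.53 under TGF-β, 1.57 under TNF-α and 1.34 under costimulation. As for Adam15, the control library alone was apart. The log2 fold change was −0.52 ± 0.18 (SE; edgeR's adjusted p = 0.0126), and with TGF-β as the only term it was −0.54 over all libraries (edgeR's adjusted p = 0.0798). In such fits it ranged from −0.19 without control (edgeR's adjusted p = 0.360) to −0.85 without TNF-α, the 1 library whose removal left it called (0.000241). Adamtsl5 was the second member by level in control cells, with 25.1, 20.2, 19.6 and 20.5 RPKM in the same order. Its log2 fold change was −0.19 (edgeR's adjusted p = 0.334). Adamtsl1, Adamtsl2 and Adamtsl3 had at most 9 reads in a library and were not tested.

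Reads in introns, which the tables count apart from exon reads and which come in part from unspliced RNA, moved the same way for most of these genes. In TGF-β over control, 11 of the 12 risers had at least 10 intron reads over the 2 libraries, and for 10 of them the counting interval of the intron fold lay above 1, all but Adamts5. For the 6 genes that fell it lay below 1 in every case. In costimulation over TNF-α, 9 of 9 risers with that many reads were above 1 and 5 of 6 were below it, all but Adam15. The same tally over all called genes was not made. Intron reads of Adam12 numbered 28 in control, 430 under TGF-β, 29 under TNF-α and 333 under costimulation, folds of 14.2 (9.72 to 21.7) and 11.7 (8.02 to 17.8). Those of Adamts6 rose 8.60-fold (6.38 to 11.8) and 6.63-fold (5.12 to 8.71), and those of Adamts9 fell to 0.354 (0.290 to 0.429) and 0.183 (0.143 to 0.233) of the level without TGF-β. For Adam8 the intron folds of 2.32 (1.9 to 2.84) and 2.53 (2.09 to 3.09) were far below its exon folds. The same held for Adam12 and for Adamts12, the latter with 1.60 (1.24 to 2.06) and 2.48 (1.91 to 3.24). It also held for Adamts7, with 6.91 (3.67 to 14.4) and 5.89 (3.25 to 11.6). Intron reads made up 6.72% of gene reads in the control library and between 8.16% and 8.50% in the other 3, a difference whose part in these ratios was not tested.

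**Figure D3:**
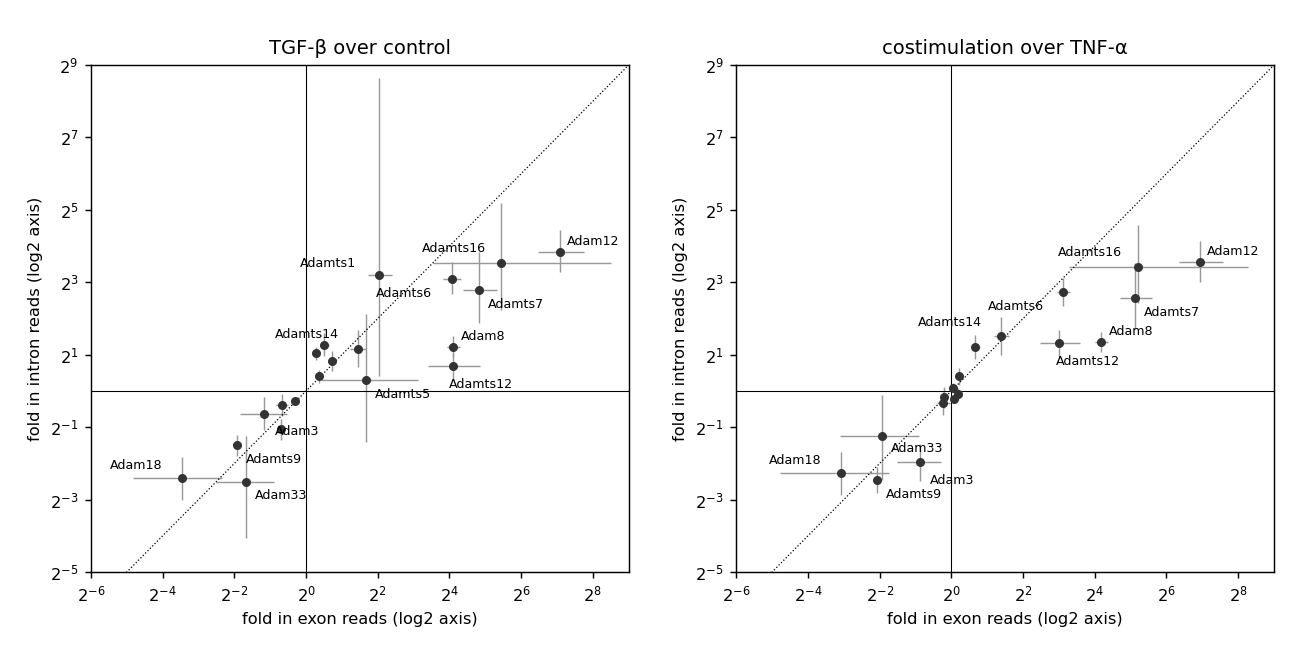
Fold in intron reads against fold in exon reads on log2 axes, for the named genes with at least 10 intron reads over the 2 libraries compared, 20 in TGF-β over control (left) and 18 in costimulation over TNF-α (right). Bars are 95% counting intervals and the dotted line marks equal folds. Adam12, Adam8, Adamts7 and Adamts12 lie below the line in both panels, and Adamts9 and Adam18 sit in the lower left.

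The second comparison asked which members changed with TNF-α. In edgeR's additive test 0 of 29 members rose and 0 fell with TNF-α (0.289% and 0.133% of all genes), with 2 members, Adamts6 and Adamtsl4, at an unadjusted p under 0.05. DESeq2 made 0 calls and had 0 members at an unadjusted p under 0.05, and limma made 0 calls with 1 or 2 members at such a p. No member had a counting interval beyond 2-fold in TNF-α over control (0 of 30, background 0.535% above and 0.331% below) or in costimulation over TGF-β (0 of 35, background 0.374% and 0.27%). The named members spanned 0.588 to 1.91 in the first ratio and 0.563 to 1.31 in the second. In TNF-α over control, 7 counting intervals lay above 1 (Adam9, Adam10, Adam17, Adamts4, Adamts6, Adamts9 and Adamts14) and 4 below (Adam15, Adam18, Adamtsl4 and Adamtsl5), though with scaling in bins of GC content and length Adam17 and Adamts9 crossed 1, to 0.966 and 0.985. Costimulation over TGF-β, which leaves out the control library, had 3 above 1 (Adamts7, Adamts10 and Adamts14) and 4 below (Adam9, Adam10, Adamts1 and Adamts12). The share of all genes with a counting interval clear of 1 was not counted for either ratio.

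**Figure D4:**
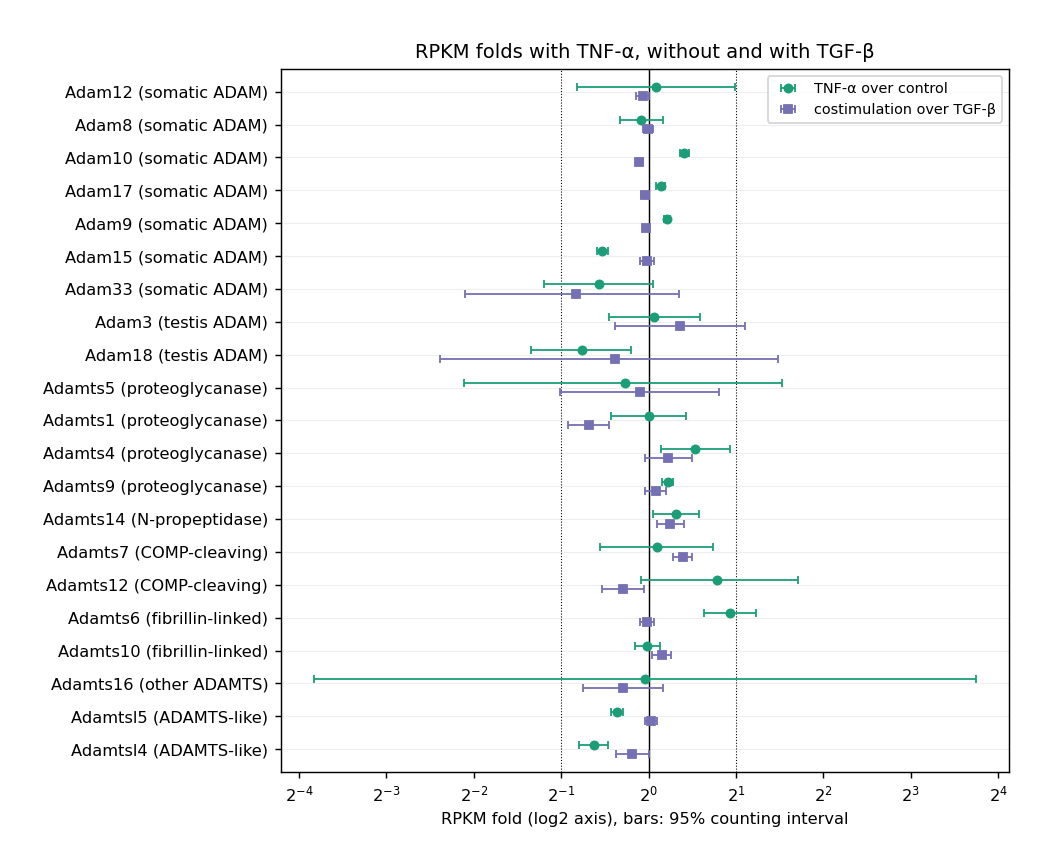
RPKM folds of the 21 named genes on a log2 axis, TNF-α over control (circles) and costimulation over TGF-β (squares), with bars for the 95% counting interval and dotted lines at 2 and 0.5. The circle of Adamts6 at 1.91 is the farthest right, and the squares of the abundant ADAMs lie close to 1.

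Adamts6 had the highest fold with TNF-α alone. Its level was 0.240 RPKM in control and 0.458 with TNF-α, a fold of 1.91 (1.55 to 2.35), but 4.04 with TGF-β and 4.0 under costimulation, a fold of 0.989 (0.935 to 1.05). Adamts14 was the member with intervals above 1 in both ratios, at 1.24 (1.04 to 1.49) and 1.19 (1.07 to 1.33). Adamts1 was lower with costimulation than with TGF-β, at 0.622 (0.528 to 0.732), and stood at 1.00 (0.745 to 1.35) in TNF-α over control. Adamts7 went to 1.31 (1.21 to 1.41) in costimulation over TGF-β. With the same scaling the fold in TNF-α over control was 1.49 for Adamts6, 1.18 for Adam10, 1.04 for Adam9 and 0.825 for Adam15. The part of base composition in the unscaled folds was otherwise not tested.

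The log2 fold of TGF-β differed between the backgrounds without and with TNF-α for some members by more than counting error, which was described and not tested, since each ratio rests on 1 library a side. The difference, with minus without TNF-α and with an interval from the counting SE, was −1.08 (−1.94 to −0.21) for Adamts12, −0.95 (−1.25 to −0.64) for Adamts6, −0.69 (−1.16 to −0.21) for Adamts1 and −0.52 (−0.58 to −0.45) for Adam10. It was 0.51 (0.41 to 0.61) for Adam15 and 0.44 (0.19 to 0.69) for Adamtsl4, where the fold was nearer to 1 with TNF-α. With scaling in bins of GC content and length these differences were smaller, at −0.75 for Adamts12, −0.52 for Adamts6, −0.55 for Adamts1, −0.33 for Adam10, 0.21 for Adam15 and 0.18 for Adamtsl4. The interval also excluded 0 for Adamtsl5 at 0.38 (0.29 to 0.48) and Adam9 at −0.24 (−0.29 to −0.20). It did so too for Adam17 at −0.18 (−0.24 to −0.11) and Adamts9 at −0.14 (−0.28 to −0.0044). With the same scaling Adamtsl5 was at 0.11 and Adam9 at −0.06, while Adam17 and Adamts9 changed sign, to 0.04 and 0.16. For Adam12 at −0.15 (−0.99 to 0.69), Adam8 at 0.07 (−0.17 to 0.32) and Adamts7 at 0.30 (−0.32 to 0.92) the intervals included 0.

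Genes that act with the family were read from lists, whose counts stand beside 18.6% of all genes higher and 19.9% lower with TGF-β. Of 5 inhibitors, 4 were tested, and Timp1, a secreted inhibitor of metalloproteinases, rose from 14.2 RPKM in control and with TNF-α to 36.3 with TGF-β and 36.7 with costimulation (log2 fold change 1.30 ± 0.15, SE; edgeR's adjusted p = 4.13e-16). Timp2 was higher in level, at 70.6 to 79.5 RPKM, and was not called, and Timp3, the main inhibitor of Adam17, was at 0.0697 RPKM or less. Among 13 proteins that mature or guide Adam10 and Adam17, 11 were tested, 1 rose and 6 fell, with a list median of −0.41 in log2 TGF-β over control, beside 0.08 over all genes. The gene that rose was Furin, the proprotein convertase that activates many ADAMs, at 64.7 RPKM in control, 124 under TGF-β, 54.6 under TNF-α and 126 under costimulation (log2 fold change 1.00). Tspan15, a tetraspanin that guides Adam10 to N-cadherin, had 93.1, 21.7, 77.2 and 18.4 RPKM in the same order and fell by 2.15. The others that fell were the convertase Pcsk6 (by 2.59), Tspan33 (by 1.23), Tspan5 (by 0.81), Tspan14 (by 0.56) and Rhbdf2 (by 0.39), which escorts Adam17 to the surface.

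Of 30 membrane proteins known to be shed, 26 were tested, and 6 rose and 7 fell with TGF-β (list median 0.20, beside 0.08 over all genes), shares near those of all genes (18.6% and 19.9%). Ephb2, a receptor of ephrins, went from 0.0170 RPKM in control to 3.14 with TGF-β (log2 fold change 7.50), and Jag1, a Notch ligand, from 17.7 to 43.2 (1.00), with Prnp, Hbegf, Notch2 and Dll1 also higher. Among the lower genes were Cx3cl1, a membrane-bound chemokine (−2.43), Notch1 (−2.34), Btc (−1.67) and Cdh1, which encodes E-cadherin (−1.05), with Alcam, Tnfrsf1a and Tnfrsf1b. Cxcl16, another membrane-bound chemokine, was the 1 gene of the list that rose with TNF-α (log2 fold change 1.44, edgeR's adjusted p = 1.70e-08). Of 20 proteins, most of them of the matrix, that ADAMTS or ADAMTS-like proteins cut or bind, 13 were tested. Of these 6 rose and 2 fell (list median 0.58), beside 18.6% and 19.9% of all genes and their median of 0.08. The risers include Vegfc, a growth factor, and the genes that fell include Lrp1, a membrane receptor, neither a matrix protein. Vegfc (37 reads under TGF-β, 1 in control) and Fbn1 (23 and 4) were tested only through the libraries with TGF-β. Fbn2 (7 and 34) was tested only through those without it. Col5a1 went from 0.164 RPKM in control to 14.7 with TGF-β and Col1a1 from 0.414 to 9.51, both procollagens, while Comp had at most 28 reads in a library. The proteoglycan aggrecan (Acan) was at 7.48 to 8.95 RPKM and was not called, and versican (Vcan) did not exceed 0.0834 RPKM.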

How the data were processed

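RNA of 4 CMT64 cultures (control, TGF-β, TNF-α, costimulation) was sequenced on HiSeq after oligo(dT) enrichment. The authors trimmed adapters and mapped reads with the RNA-Seq tool of CLC Genomics Workbench (version not given in the sources used here) to mm10, as the submitters' processing notes name it, with a mismatch cost of 2, insertion and deletion costs of 3 and up to 30 hits per read. The deposited counts are whole exon and intron reads per gene, and total counts include reads with several hits while unique counts leave them out. The authors computed the deposited RPKM from total (not unique) exon reads. The deposited TPM values are a rescaled RPKM and were not used.

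Counts of all genes were tested with edgeR (4.0.16) in R (4.3.3), using TMM, filterByExpr on the design and robust quasi-likelihood fits with 1 term per cytokine, and p-values were adjusted by Benjamini-Hochberg over 13509 genes (threshold 0.05). The SE is the log2 fold change over the square root of F. Folds carry exact 95% intervals (Clopper-Pearson, on the split of reads between both libraries given their mapped reads). Named are members with an RPKM of at least 1 somewhere, a call, or an interval beyond 2-fold. Members, role groups and gene lists were chosen with earlier results of these data known. Promoters came from RefSeq (GRCm38.p6), 31 of 57 members having a window, and Adam19 having 3 of the 33. GC content was taken from GENCODE transcripts. Alternatives were DESeq2 size factors in edgeR, TMM-scaled folds, no filter, unique reads, 1 cytokine as the only term, leaving out each library, DESeq2 (1.42.0), limma (3.58.1) on log2 RPKM with pseudocounts of 0.1 and 1, RPKM thresholds multiplied by 0.5 and 2.5 and, added after seeing the data, scaling in 10 bins of GC content and of length. Of the 6 named members whose gene overlaps another one, 1 overlap is not reported here. Intervals came from scipy (1.17.1) under Python (3.11.15), tables from pandas (2.3.3) and numpy (2.4.6), and plots from matplotlib (3.10.9).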

Additional observations from a re-analysis of the deposited data

Results flagged for a closer look

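For Adam10 and Adam9 the TNF-α fold pointed in opposite directions without and with TGF-β, with counting intervals clear of 1 on both sides. The Adam10 fold was 1.33 (1.28 to 1.37) in TNF-α over control and 0.928 (0.902 to 0.955) in costimulation over TGF-β. For Adam9 it was 1.16 (1.13 to 1.18) and 0.977 (0.957 to 0.999). The difference between the ratios was not tested, since each rests on 1 library a side. Both genes lie below the median GC content of 51.2%, at 46.0% and 47.6%, and the control library enters only the first ratio. With scaling in bins of GC content and length the folds were 1.18 and 0.938 for Adam10 and 1.04 and 0.997 for Adam9.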

How the results depend on the processing

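The 8 risers and 2 fallers past 2-fold (Adam8, Adam12, Adamts1, Adamts6, Adamts7, Adamts12, Adamts14 and Adamts16, and Adam18 and Adamts9) were called in all 13 fits run. The 6 members lower with TGF-β were 3 with DESeq2 and 5 with TGF-β as the only term over all libraries. The 12 higher members were 10 with DESeq2 and 11 with TGF-β as the only term over all libraries. Over all 13509 genes, higher calls went from 2507 in the main fit to 1888 with DESeq2, and lower calls from 2684 to 2057. Fewer calls with DESeq2 were thus not confined to the members. When the TNF-α term was dropped and all libraries were kept, higher and lower calls over all genes numbered 2239 and 2590. Calls also changed with the library left out, over all genes as well as over the members. Leaving out 1 library put a single library on 1 side, so counts of calls from those fits are not given. DESeq2 lost Adam3 (adjusted p = 0.260), Adam33 (0.104), Adamtsl4 (0.128), Adamts4 (0.0537) and Adamts5 (0.366). Of 10 members with an RPKM above 2 under TGF-β, 4 passed the threshold of the study, and 1 (Adam8) did with RPKM thresholds multiplied by 2.5. The uncalled log2 fold change of Adam9, 0.10, was −0.044 with scaling in bins of GC content and length and −0.0039 without control (0.18 without TNF-α, where it was called with edgeR's adjusted p = 0.0454). Over all members and alternatives, calls of single members were lost in 33 cases and gained in 3 (Adam9, Adam17 and Adamtsl5, all without TNF-α), and 38 folds moved by more than their counting interval. The cause was not tested. Scalings by TMM or DESeq2 size factors shifted all genes by −0.0761 to −0.0052 on the log2 scale. The search for the zinc-binding motif in the proteins was not run. No paired analysis was possible because each condition had 1 library and the labels give no shared replicate numbers.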

Other observations

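The other ADAMTS-like genes, Papln and Thsd4, whose names the rule does not take, both fell with TGF-β. Papln, the gene of papilin, a basement membrane protein, had 671 reads in control, 72 under TGF-β, 724 under TNF-α and 78 under costimulation (log2 fold change −3.32 ± 0.23, SE; edgeR's adjusted p = 6.35e-47). Thsd4, which binds fibrillin, went from 18.4 RPKM in control to 5.28 under TGF-β and from 20.1 under TNF-α to 4.21 under costimulation (−2.09 ± 0.15, SE; edgeR's adjusted p = 1.36e-41).

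Several members lie side by side, and only some of them were called. Adam18, Adam3, Adam5, Adam32 and Adam9 follow each other on chr8:24602246-25016927 in mm10, with gaps of 806 to 11770 bases. Of these Adam18 and Adam3 fell. Adam5 had 39 reads in control and 24, 24 and 13 under TGF-β, TNF-α and costimulation, Adam32 had 19, 27, 8 and 15, and neither was called. Adam5 pointed the same way as Adam18 and Adam3, at 0.571 (0.328 to 0.973) in TGF-β over control. In costimulation over TNF-α it was at 0.553 (0.259 to 1.13). Whether the neighbours differ in their change was not tested. Adamts3, a procollagen N-propeptidase, had 158 intron reads in control and 138 under TGF-β but at most 3 exon reads in a library. Adamts17 had 86 and 84 intron reads in the same libraries and at most 10 exon reads. Whether such intron reads belong to these genes was not tested.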
